A study of Mus musculus with 31 samples.

Results

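A set of 240 short genomic windows was followed through mouse oocyte growth. Each is CpG-dense, nearly unmethylated in oocytes of primordial follicles and highly methylated in the last stage sampled, Type7. They were chosen among 39619 fixed windows of 100 bp, called tiles, that were measured in at least 2 libraries of each of the 9 stages. A tile was measured in a library where it held at least 3 CpG sites of at least 5 reads, and its level is the percentage of reads at those sites that were methylated. A stage level is the mean over the libraries of the stage. The 240 tiles had 40 or more CpG sites within 500 bp of their middle, stage levels under 20% in Type1 and in Type2, and a stage level of at least 70% in Type7. The levels of Type1, Type2 and Type7 therefore chose the tiles and are given as descriptions without a test, while the stages between them did not enter the choice. A rise from under 20% to at least 70% somewhere between Type2 and Type7 is nonetheless set by the choice.

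The oocytes came from B6D2F1 mice, a cross of C57BL/6 and DBA/2, and no stage carried a mutation or a treatment. Reduced representation bisulfite sequencing was used, in which the enzyme MspI cuts at CCGG and the short fragments are sequenced after bisulfite has converted unmethylated cytosine. Type1 and Type2 are oocytes of primordial follicles. Type3a and Type3b came from primary follicles, and Type4, Type5a and Type5b from secondary follicles. The last, Type6 and Type7, came from antral follicles. Type4 and Type5a have 5 libraries each, and each other stage has 3. Nothing in the labels says how many oocytes or which animals made a library, and a further label naming embryo stages goes against the titles and was not used.

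Mouse oocytes lay down DNA methylation while they grow, through the methyltransferase DNMT3A and its partner DNMT3L, mostly across regions that the oocyte transcribes. Most CpG islands, the CpG-dense stretches found at many promoters, escape this. A minority become methylated, among them the imprint control regions that stay methylated on the maternal copy in the embryo.

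The 240 tiles made up 2.38% of the 10094 CpG-dense tiles. Another 7599 CpG-dense tiles (75.3%) were under 20% in Type1, Type2 and Type7, and are called the tiles that stayed low. Of the 29525 tiles with fewer than 40 sites, 3353 (11.4%) had the same levels as the 240 in Type1, Type2 and Type7, and are called the CpG-poor tiles. The 240 tiles held 2024 CpG sites and lay in 124 regions when those no more than 1 kb apart were joined. Of the regions 54 had a single tile, and the largest had 7. The median tile had 48 sites within 500 bp, the densest had 107, and 49 tiles had 60 or more. Sites were counted where any library listed them, so a CpG beyond the reach of the assay is not counted. The tiles lay on 20 chromosomes, with 2 on X. As a share of the CpG-dense tiles of a chromosome they ran from 0.228% on chromosome 9, which held 1, to 4.13% on chromosome 7, which held 25. Chromosome 11 held most, 30.

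Of the 240 tiles, 22 (9.17%) overlapped a promoter that could be placed on the files' coordinates, against 1703 (22.4%) of the tiles that stayed low. No annotation of the files' build, mm9, was used. Promoters of RefSeq, given for build GRCm38.p6 as 250 bases before to 50 after a gene start, were placed by matching the spacing of their CpG and the neighbouring bases to the listed sites. Of 32851 promoters 4104 were placed, so the shares leave out promoters with few CpG or few listed sites. The 4 placed promoters printed here overlap the tiles and show sequence that was partly methylated in all 3 Type5b libraries (Commd1), spread widely in Type5b and Type6 (Tsr1), was read at 0% in Type5b and partly methylated in Type6 (Sgpp2), or was still under 5% in Type6 (Nkain2). Commd1 encodes a protein of copper handling and NF-kB control, Tsr1 a factor of ribosome assembly, Sgpp2 a phosphatase of sphingosine-1-phosphate, and Nkain2 a membrane protein that interacts with the sodium pump. Each is written 5′ to 3′ on the strand of its gene, with every CG in capitals. In GRCm38.p6 they are chr11:22972817-22973116 (minus strand, 17 CpG, 54.7% G and C), chr11:74897830-74898129 (plus, 24 CpG, 60.7%), chr1:78310096-78310395 (plus, 34 CpG, 72%) and chr10:32889866-32890165 (minus, 43 CpG, 78.7%).
Commd1: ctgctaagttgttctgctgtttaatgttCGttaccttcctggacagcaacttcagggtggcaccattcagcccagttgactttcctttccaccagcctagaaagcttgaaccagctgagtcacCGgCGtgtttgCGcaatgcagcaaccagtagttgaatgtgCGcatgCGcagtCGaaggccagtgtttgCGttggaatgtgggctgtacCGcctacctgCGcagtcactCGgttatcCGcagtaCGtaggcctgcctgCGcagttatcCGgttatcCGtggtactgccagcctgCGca
Tsr1: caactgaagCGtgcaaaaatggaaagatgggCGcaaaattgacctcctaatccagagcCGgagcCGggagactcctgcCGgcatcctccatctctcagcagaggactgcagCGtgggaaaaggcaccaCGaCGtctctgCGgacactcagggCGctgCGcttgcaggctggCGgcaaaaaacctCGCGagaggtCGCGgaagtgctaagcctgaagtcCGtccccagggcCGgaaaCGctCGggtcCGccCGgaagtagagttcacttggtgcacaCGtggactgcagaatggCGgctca
Sgpp2: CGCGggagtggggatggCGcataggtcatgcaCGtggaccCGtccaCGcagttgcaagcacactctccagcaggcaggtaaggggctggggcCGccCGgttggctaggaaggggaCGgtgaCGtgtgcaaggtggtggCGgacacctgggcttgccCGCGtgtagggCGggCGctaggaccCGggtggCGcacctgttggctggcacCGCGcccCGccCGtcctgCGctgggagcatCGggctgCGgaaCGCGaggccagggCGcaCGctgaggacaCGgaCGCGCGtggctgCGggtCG
Nkain2: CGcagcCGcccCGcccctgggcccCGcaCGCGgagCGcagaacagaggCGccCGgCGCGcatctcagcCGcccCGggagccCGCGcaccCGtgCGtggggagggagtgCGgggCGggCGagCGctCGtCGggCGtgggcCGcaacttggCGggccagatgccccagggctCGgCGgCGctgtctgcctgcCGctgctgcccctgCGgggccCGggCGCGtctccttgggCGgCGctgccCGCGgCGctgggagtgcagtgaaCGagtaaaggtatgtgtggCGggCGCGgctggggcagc

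The 240 tiles stayed low through primary and early secondary follicles and gained most of their methylation from Type5b on. Type1 libraries averaged 1.99% ± 1.45 (SD, n = 3) over these tiles and Type2 libraries 1.24% ± 0.686. Primary follicle oocytes had 4.67% ± 3.95 at Type3a and 4.78% ± 0.129 at Type3b. Among secondary follicles, Type4 had 7.41% ± 4.39 (n = 5), Type5a 8.05% ± 3.95 (n = 5) and Type5b 43.1% ± 10.4 (n = 3). Among antral follicles, Type6 had 60.8% ± 3.93 and Type7 92.3% ± 1.86. The tiles that stayed low had stage means between 0.988% and 2.52% throughout.

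**Figure D1:**
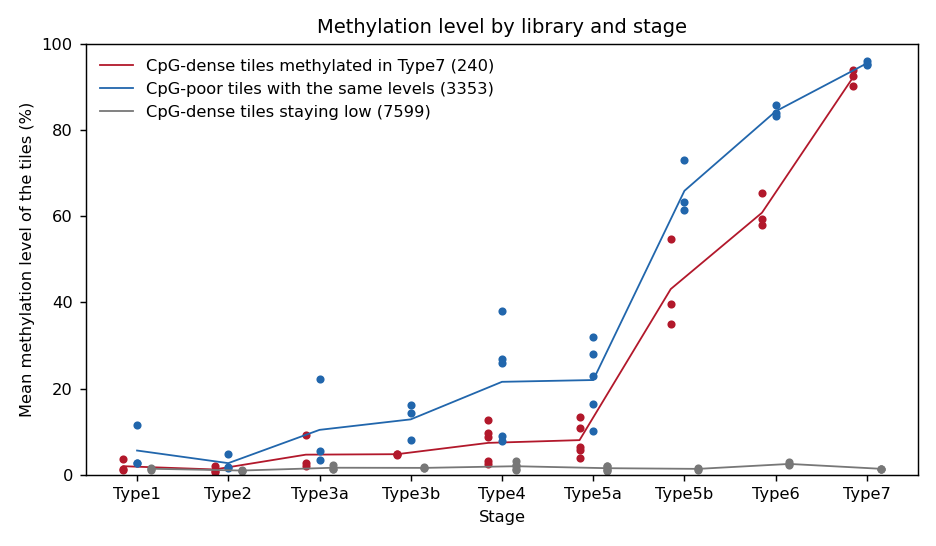
Mean methylation level (y axis, %) of 3 sets of tiles in each library (points) of the 9 stages (x axis), with lines through the stage means. The 240 CpG-dense tiles (red) lie below the CpG-poor tiles (blue) in Type5b and Type6 and close to them in Type7, while the tiles that stayed low (grey) lie near 0 in all libraries.

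The libraries of Type5b, Type6 and Type7 did not overlap in the mean level of these tiles. The Type5b libraries had 54.8, 34.98 and 39.6% in replicates 1 to 3, the Type6 libraries 59.3, 57.9 and 65.3%, and the Type7 libraries 90.3, 92.6 and 94.0%. With reads pooled over the tiles, Type5b replicate 1 had 56.3% and Type6 replicate 2 had 52.6%. The lack of overlap between Type5b and Type6 thus depends on the averaging. The highest Type5a library, replicate 1, had 13.4%, and the lowest, replicate 4, had 3.85%. All Type5a libraries thus lay below all Type5b libraries. A library measured between 120 (Type5a replicate 6) and 240 of the tiles, and 20 tiles were measured in all 31 libraries. Over those 20 the means were 4.71% in Type5a, 32.9% in Type5b and 57.6% in Type6. A level between 0 and 100% may come from alleles, from oocytes or from other cells of a library that differ, and these cannot be told apart in pooled reads.

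The higher Type4 libraries were also those in which the X chromosome was more methylated. An X measure was taken per library, as the mean over 63 X tiles with 60 or more sites minus the mean over 2902 autosomal tiles of that density. Somatic cells of females carry an inactive X with methylated CpG islands, which oocytes lack. In Type4 the X measure was 6.75, 10.6 and 9.94 points in replicates 1, 2 and 5, where the 240 tiles averaged 9.70, 12.8 and 8.75%. It was -3.37 and -0.662 points in replicates 4 and 6, where they averaged 2.57 and 3.22%. In Type1 and Type3a the library with the highest level also had the highest X measure, 1.09 and 1.86 points. In Type5a and Type6 the library with the highest level had the lowest X measure, -3.86 and -4.02 points. Without the 9 libraries of the series whose X measure was above 0, the Type4 mean was 2.89%, the Type5a mean 7.67% and the Type6 value 65.3%, which left 2 libraries in Type4, 3 in Type5a and 1 in Type6. Of the Type5b and Type7 libraries none had an X measure above 0, with the highest at -2.54 and -3.93 points. The autosomal tiles of the measure include some of the 240, whose late gain lowers it in late stages. A limit at 0 therefore does not compare the somatic cell content of early and late stages.

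The 240 tiles lay below the CpG-poor tiles while methylation was being gained and came close to them in Type7. In Type5b they averaged 22.8 ± 4.18 points (SD, n = 3) below the CpG-poor tiles of the same library, in Type6 23.5 ± 2.67 and in Type7 3.20 ± 1.45. From each stage to the next, the mean of the 240 tiles was 35.1 points higher in Type5b than in Type5a, 17.7 points higher in Type6 than in Type5b and 31.5 points higher in Type7 than in Type6. For the CpG-poor tiles the same steps were 43.9, 18.4 and 11.2 points. Both sets were chosen by their Type7 level, so the last step of each is a description.

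The values of single tiles spread over the whole range in Type5b and Type6. In Type5b 40.2% ± 13.9 (SD, n = 3) of the tiles measured in a library were under 20%, 35.7% lay between 20 and 80%, and 24.0% ± 8.07 were over 80%. In Type6 the shares were 19.13% ± 5.02 under 20%, 40.02% between, and 40.8% ± 4.16 over 80%. In Type7 they were 0.151% under 20%, 14.4% between, and 85.4% ± 3.72 over 80%. From the lower to the upper quartile, the stage levels ran from 14.7 to 71.0% in Type5b, from 45.1 to 87.1% in Type6 and from 87.1 to 99.1% in Type7.

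**Figure D2:**
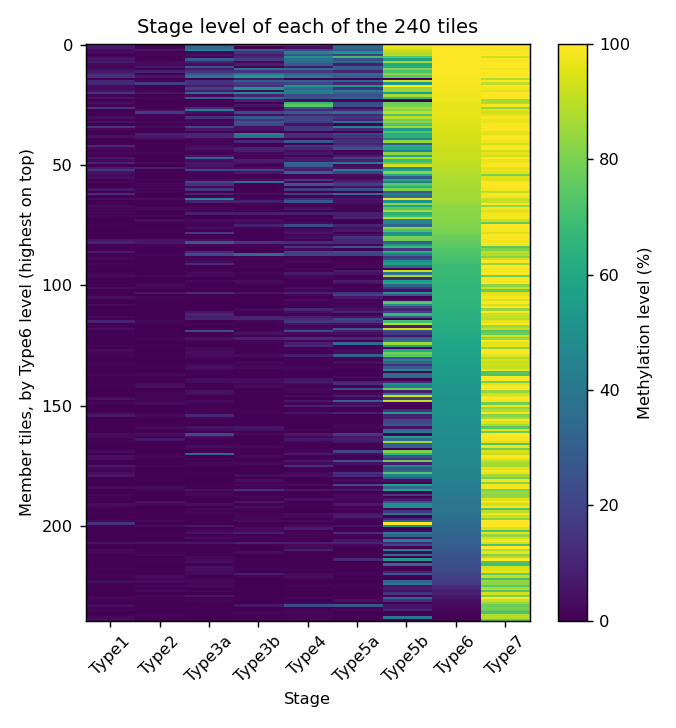
Stage level (colour, 0 to 100%) of each of the 240 tiles (rows, ordered by their Type6 level) in the 9 stages (columns). The columns from Type1 to Type5a are dark for most tiles, Type5b and Type6 hold all levels from 0 or 0.425% to 100%, and Type7 lies at 70.01% or above in every row, as chosen.

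The comparisons between the stages before Type5b called none of the 240 tiles. A tile was called where a quasi-binomial model of its reads gave an adjusted p (Benjamini-Hochberg over all tiles tested) under 0.05 and the stage levels differed by at least 20 points. In Type3b against Type3a 0 tiles were called in either direction, as were 0% of the 51559 tiles tested, and 8 of the 240 had an unadjusted p under 0.05, against 3.61% of all tiles. In Type4 against Type3b 0 were called, with 0.00315% of 63468 tiles called higher and 0.00158% called lower, and 13 had an unadjusted p under 0.05, against 7.57% of all tiles. In Type5a against Type4 0 were called, as were 0% of 84424 tiles, and 17 had an unadjusted p under 0.05, against 7.11% of all tiles. Called by limma on the tile levels, the count was also 0 in all 3 comparisons. Without the libraries whose X measure was above 0, 4 of the 131 tiles still tested were called higher in Type5a than in Type4, and 111 of all 34787 tiles were called in either direction.

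Between Type5a and Type5b many of the tiles gained methylation, and none was called as losing it. In Type5b against Type5a 88 of the 240 tiles were called higher and 0 lower, against 3.77% called higher and 0.0963% called lower of the 65397 tiles tested, and 1.07% called higher among the CpG-dense tiles. The 88 lay in 57 regions. The median difference over the 240 tiles was 33.9 points, and 0 over all tiles tested. In 117 tiles every Type5b library lay above every Type5a library, against 10.6% of all tiles tested, and below it in 0, against 1.75%. The rule asks for a rise by Type7, so an excess of gains over all tiles at some step was set by the choice. Of the CpG-poor tiles, chosen by the same levels, 1126 of 3353 (33.6%) were called higher, against 36.7% of the 240. The median difference of the CpG-poor tiles was 46.1 points. The count depended on a single library: without Type5b replicate 1, which had the highest mean, 33 of the 177 tiles still tested were called.

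Some tiles had stage levels above 80% in Type5b and were near 0 in most Type5a libraries. The tile chr13:55926701-55926800 had 99.2, 61.9 and 100% in the 3 Type5b libraries, against 0, 0 and 1.18% in the 3 Type5a libraries that measured it (difference 86.6 points, adjusted p = 0.00152). The tile chr10:79198001-79198100 had 95.7, 84.2 and 100% in Type5b libraries, against 2.82, 6.70 and 0.127% in Type5a libraries (90.1 points, adjusted p = 0.00266). At chr2:174154201-174154300 the Type5b libraries had 94.2 and 98.7%, against 0, 0, 22.2 and 0% in the Type5a libraries (90.9 points, adjusted p = 0.00213). This tile was at 87.5% in Type3a replicate 1 and 34.8% in Type4 replicate 2, and at most 9.29% in other Type3a, Type3b and Type4 libraries. The chromosome 10 tile was at 83.9 and 21.5% in Type4 replicates 2 and 1, and at most 17.1% in the others of these stages. In none of the 3 tiles did the libraries of the 2 stages overlap, and their Type6 levels were 82.7, 90.4 and 86.1%. The 5 largest gains without overlap also held tiles far lower in Type6. At chr17:47809401-47809500 Type5b had 99.9% and Type6 34.9% (gain 99.9 points, adjusted p = 0.00335). At chr17:25150701-25150800 Type5b had 93.9%, Type6 51.8% and Type7 96.7% (gain 86.6 points, adjusted p = 0.00169). This call was lost in a fit on the 2 stages alone (adjusted p = 0.0523). Its lower Type6 level was not called (adjusted p = 0.11).

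In Type6 against Type5b 35 of the 240 tiles were called higher, in 25 regions, and 4 lower, in 4 regions. Of the 61151 tiles tested 1.35% were called higher and 0.0621% lower, and of the CpG-dense tiles 0.812% were called higher. The median difference was 18.5 points over the 240 tiles and 3.03 points over all tiles. Every Type6 library lay above every Type5b library in 69 of the 240 tiles, against 20.7% of all tiles, and below it in 7, against 1.34%. Here too the rule favours gains over those of all tiles. The CpG-poor tiles had 226 of 3353 called higher (6.74%, against 14.6% of the 240) and 8 lower, with a median of 14.2 points. Without Type5b replicate 2 the count of calls in both directions fell to 23, and without Type5b replicate 3 to 24, against 39 with all libraries. With only the libraries of Type6 and Type5b in the fit it was 1, so at most 1 of the Type6 calls named below was kept in that fit.

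The 5 largest gains called without overlap between Type5b and Type6 were 2 pairs of touching tiles and a single tile. At chr17:47809601-47809700 the Type6 libraries had 100 and 97.9%, against 0.534 and 0.360% in the Type5b libraries (98.5 points, adjusted p = 2.64e-05). Its neighbour chr17:47809501-47809600, with 97.6 points, is described with the tile called lower beside it. The tiles chr7:4787801-4787900 and chr7:4787901-4788000 were at 0, 0 and 0% and at 1.04, 0 and 0.685% in the Type5b libraries. In the Type6 libraries that measured them the first had 94.7 and 36.1% and the next 98.96 and 37.1%. The differences were 65.4 points (adjusted p = 0.0232) and 67.4 points (adjusted p = 0.0222), but each call was lost without Type5b replicate 1 (adjusted p = 0.0590 and 0.0657) and without replicate 3 (adjusted p = 0.0959 and 0.116). At chr5:74464301-74464400 the Type6 libraries had 99.1 and 87.3%, against 17.8 and 39.2% in the Type5b libraries (64.7 points, adjusted p = 0.0346, and 0.0617 with at least 10 reads per site or 0.157 without the libraries of X measure above 0).

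Of the 240 tiles 5 were called higher in both steps and 122 in neither. Of the 59280 tiles tested in both steps 0.0641% were called higher in both and 94.8% in neither, and of the CpG-dense tiles 0.0354% and 98.1%. The 5 were the Commd1 tiles chr11:22872801-22872900 and chr11:22872901-22873000, and tiles on chromosomes 8, 11 and 12. They were singled out after their values were seen. At the first Commd1 tile the stage levels from Type5a to Type7 were 20.5, 61.9, 93.9 and 95.6%.

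The 4 tiles called lower in Type6 had Type5b levels between 39.0 and 99.9%, and their Type7 level of 70% or more is set by the choice. At chr5:143576901-143577000 the Type6 libraries had 0, 0 and 1.93%, against 42.5 and 35.5% in the Type5b libraries (-38.4 points, adjusted p = 0.0075), and the Type7 libraries had 78.2 and 100%. At chr17:47809401-47809500 the Type6 libraries had 72.2, 32.5 and 0%, against 99.8 and 100% in the Type5b libraries (-65.0 points, adjusted p = 0.0357, and 0.0522 with at least 10 reads per site or 0.0554 with at most 10 reads counted), and the Type7 libraries had 100, 100 and 100%. The tile beside it, chr17:47809501-47809600, went the other way, with 100 and 95.5% in Type6 libraries, against 0.241 and 0% in Type5b libraries (97.6 points, adjusted p = 0.000177). Reads of a tile are summed over its sites, so a read that covers several sites counts at each. In Type5b replicate 2, which measured both, the first was at 100% over 95 reads summed over 4 sites. The next was at 0.241% over 1659 reads summed over 14 sites. In Type6 replicate 3 the first was at 0% over 43 reads summed over 4 sites and the next at 95.5% over 178 reads summed over 10 sites. Neighbours thus stood at opposite levels within a library, in opposite directions in these 2 libraries. The third tile, chr4:101760401-101760500, had stage levels of 48.4% in Type6 and 85.4% in Type5b. The fourth, chr11:74403701-74403800 in the promoter of Rap1gap2, a regulator of the small GTPase Rap1, had 16.7% and 39.0%. Neither was among the calls without overlap between libraries. Over the Rap1gap2 promoter the Type5b libraries had 0, 53.9 and 36.1%, against 19.0, 16.4 and 16.0% in the Type6 libraries.

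**Figure D3:**
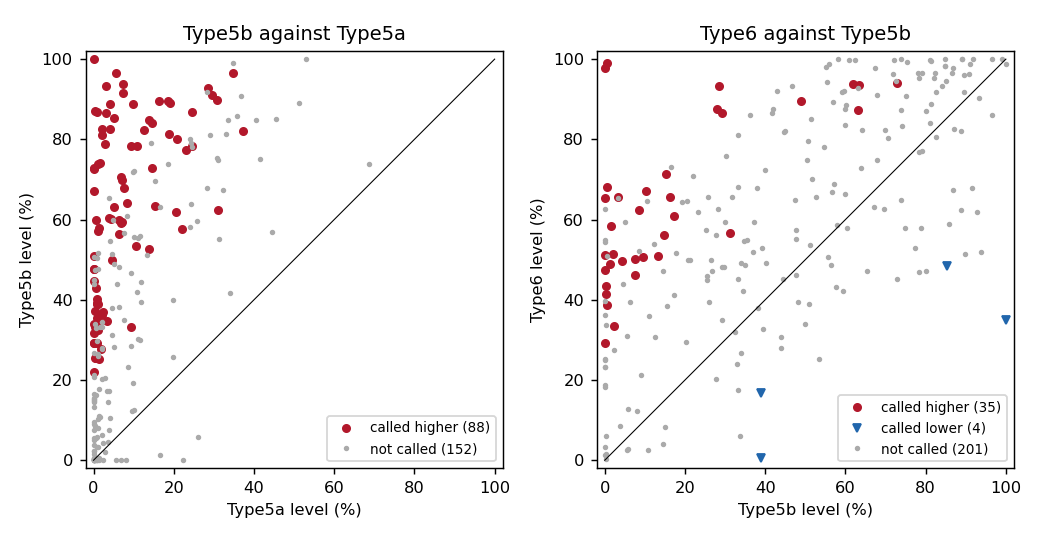
Stage level of each of the 240 tiles in Type5b against Type5a (left) and in Type6 against Type5b (right), both axes in %, with the line of equal level. On the left 88 tiles are called higher (red) and on the right 35 are called higher (red) and 4 lower (blue triangles), with the tiles that were not called in grey.

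Some tiles carried methylation before the rest. The 5 tiles with the highest mean over Type3a, Type3b and Type4 were chr7:52332301-52332400, chr7:52332201-52332300, chr4:131669801-131669900, chr5:143549701-143549800 and chr10:43231401-43231500. At chr7:52332301-52332400 the primary stages Type3a and Type3b had 38.7 and 56.2%, the secondary stages Type4, Type5a and Type5b 40.7, 30.9 and 75.4%, and the antral stages Type6 and Type7 99.2 and 100%. Its Type4 libraries had 29.0, 100, 33.7 and 0%, so a single stage held both ends of the scale. The X measures of these libraries were 6.75, 10.6, 9.94 and -0.662 points, highest where the tile was at 100% and lowest where it was at 0%. In Type3b the order was the reverse, with 100, 68.7 and 0% at X measures of -1.18, -0.994 and -0.768 points. In Type3a the tile had 81.8, 34.2 and 0% at 1.86, -2.19 and -0.466 points. What part somatic cells had in the level was not tested. At chr4:131669801-131669900 the Type5b libraries had 99.4, 99.6 and 55.4%, against 38.8, 0, 0 and 16.9% in the Type5a libraries (70.9 points, adjusted p = 0.00863, and 0.0670 without Type5b replicate 1). The other 4 were not called in Type5b against Type5a.

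The tiles that were high first and those that were low longest lay at similar CpG densities. The 40 tiles over 80% in Type5b lay in 27 regions, had a median of 45 sites within 500 bp and averaged 20.5% in Type5a and 84.4% in Type6. The 19 tiles under 20% in Type6 lay in 13 regions, had a median of 48 sites and averaged 2.08% in Type5a, 11.3% in Type5b and 7.60% in Type6. These groups were made from the levels, and the difference between their medians was not tested.

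The 19 late tiles reached at least 70% in Type7 by the rule that chose them. At chr10:119990001-119990100 the Type7 libraries had 100 and 75.9%, against 0, 0.668 and 3.02% in the Type6 libraries. At chr8:114413901-114414000 the Type7 libraries had 55.1 and 100%, against 0, 7.62 and 0% in the Type6 libraries. Every Type7 library lay above every Type6 library in both tiles. Over all 240 tiles this held in 118, and in 4.87% of the 61037 tiles measured in 2 or more libraries of both stages. The Type7 level was at least 20 points higher than the Type6 level in 147 of the 240 tiles (4.89% of all), within 20 points in 93 and at least 20 points lower in 0 (8.94%). The choice of tiles by Type7 sets these counts, and nothing is read from them.

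The Type7 level was also read in libraries that had not chosen the tiles. With Type7 replicate 1 left out of the choice 246 tiles were chosen, and that replicate averaged 85.5% over the 218 it measured, 25.9 points above the mean of the Type6 libraries in the same tiles. With replicate 2 left out its mean was 87.6% over 224 of 243 tiles, 26.6 points above Type6. With replicate 3 left out its mean was 87.6% over 174 of 242 tiles, 29.0 points above Type6. Between 80.7 and 87.4% of the tiles were at 70% or above in the library left out. The other libraries of the stage still took part in the choice, so these values describe how far the 3 libraries share the level.

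The limit of 70% fell inside a continuous range. Just above it lay chr10:45297901-45298000 at 70.5%, with 92.7 and 48.3% in the Type7 libraries, chr10:32609801-32609900 at 71.6% and a tile on chromosome 18 at 70.01%. Just below it lay chr6:48569701-48569800 at 69.7%, chrX:11583501-11583600 at 69.5% and chr10:45297801-45297900 at 68.3%. The last is the direct neighbour of the first.

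Tiles that touch each other were closer in level than the same tile in different libraries. The 240 tiles form 96 such pairs, of which a Type5b or Type6 library measured between 81 and 90. Within a library the members of a pair differed on average by 11.5 points in Type5b libraries, 10.8 points in Type6 libraries and 5.32 points in Type7 libraries. The same tile differed between libraries of its stage by 25.9, 26.1 and 10.3 points in these stages. Touching tiles can share reads and fragments. Across tiles, the levels of 2 Type5b libraries had Pearson r between 0.534 and 0.622 (177 to 190 tiles), those of 2 Type6 libraries between 0.386 and 0.522 (197 to 211 tiles), and those of 2 Type7 libraries, which the choice compresses to the top of the scale, between -0.0122 and 0.179.

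The region with most tiles, chr11:64248901-64250100, held 7 and starts next to the placed promoter of Hs3st3a1, a sulfotransferase that modifies heparan sulfate. It averaged 9.27% ± 10.3 (SD, n = 5) at Type5a, 52.1% ± 13.9 (n = 3) at Type5b, 67.0% ± 21.1 at Type6 and 97.8% ± 1.03 at Type7. Its densest tile, chr11:64249201-64249300, had 75.4, 42.5 and 35.7% in the Type5b libraries, against 54.3, 0, 10.3, 0 and 2.36% in the Type5a libraries, so the libraries overlapped and the tile was not called. In Type6 the same tile had 94.1, 10.3 and 56.4%.

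The region with 6 tiles, chr11:74710701-74711600, covers the Tsr1 promoter. Type5a libraries had 0.760% ± 0.6004 (SD, n = 4) there, Type5b libraries 23.6% ± 22.5 (n = 3), Type6 libraries 49.4% ± 31.1 and Type7 libraries 98.3% ± 2.05. Of the 4 regions with 5 tiles, chr13:55926501-55927000 contains the tile chr13:55926701-55926800 named above. At its densest tile the Type5b libraries had 86.2, 82.2 and 74.6%, against 4.41, 0, 0, 0 and 5.57% in the Type5a libraries (79.0 points, adjusted p = 5.87e-06). Of the regions with 5 tiles, chr5:93371101-93371700 held the densest tile of all, with 107 sites. There the Type5b libraries had 93.7, 81.7 and 59.6%, against 20.6, 0, 2.36 and 14.8% in the Type5a libraries (68.9 points, adjusted p = 0.00524). The call was lost without Type5b replicate 1 (adjusted p = 0.171) and without Type5a replicate 7 (adjusted p = 0.0503). A Type4 library with an X measure of 10.6 points had 89.0% in this tile, and its part in the level of Type4 was not tested.

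The region chr13:95992501-95993300 covers the promoter of Pde8b, a phosphodiesterase that breaks down cyclic AMP. Its densest tile had 90.0, 62.9 and 48.3% in the Type5b libraries, against 0, 0, 0 and 0% in the Type5a libraries (67.1 points, adjusted p = 0.00539, and 0.0937 without Type5b replicate 1). In Type6 it had 91.3, 10.5 and 87.7%, and in Type7 74.9, 100 and 100%. The last region with 5 tiles, chr7:6084001-6084500, had no tile named as called at its densest point, where the Type5b libraries had 88.6, 10.1 and 68.8%, against 11.2, 1.03, 20.95 and 13.4% in the Type5a libraries (adjusted p = 0.513).

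Methylation fell with distance from the tiles and rose again beyond about 2 kb. In Type7 the mean level of the sites was 92.0% ± 2.09 (SD, n = 3) inside the tiles, 80.3% ± 3.78 at 1 to 100 bp, 68.5% ± 4.30 at 101 to 250 bp, 64.2% ± 2.84 at 251 to 500 bp and 48.3% ± 5.85 at 501 to 1000 bp. It was 47.1% ± 5.75 at 1001 to 2000 bp and 57.0% ± 2.51 at 3001 to 5000 bp. In Type6 the sites were at 60.5% inside, 60.3% at 1 to 100 bp and 35.1% at 501 to 1000 bp, and in Type5b at 42.5, 38.3 and 23.5%. In Type5a no distance exceeded 13.3%. The Type7 level inside is part of the choice. The sites outside did not choose the tiles, but any CpG-dense tile that met the limits counts as inside. Part of the fall in Type7 is therefore set by the rule.

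**Figure D4:**
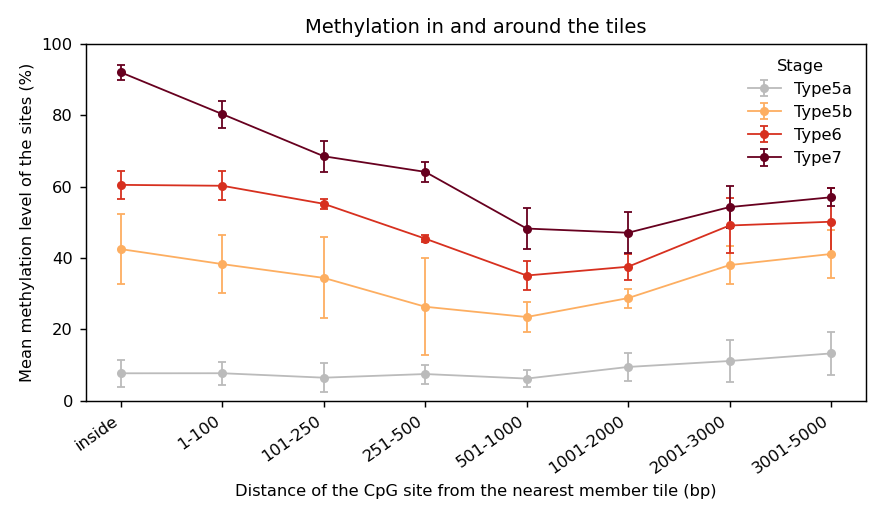
Mean methylation level of CpG sites (y axis, %) by distance from the nearest of the 240 tiles (x axis, bp) at 4 stages from Type5a to Type7, with points at the mean and bars of 1 SD over libraries. The Type7 level is 92.0% inside the tiles and 48.3% at 501 to 1000 bp, while Type6 is level at 60.5 and 60.3% inside and at 1 to 100 bp.

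Tiles within 1 kb of the 240 did not all share their level. Of 103 such tiles that were not among the 240, 51 were CpG-dense, and of these 25 were under 20% in Type7 and 26 between 20 and 70%. By the rule none of them could be at 70% or more unless Type1 or Type2 reached 20%. Of the 52 with fewer than 40 sites 40 were at 70% or above in Type7.

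Near the tiles, 36 placed promoters of 33 genes lay within 1 kb, in 31 of the 124 regions, and the promoters of 13 genes overlapped a tile. All 35 matches found in a search of the surroundings of the tiles were on the chromosome that RefSeq gives, and 0 on another. The 13 genes were Sgpp2, Elavl2, Gm13205, St8sia1, Nkain2, Commd1, Rap1gap2, Tsr1, Pde8b, Dennd6a, Rsph3b, Emilin2 and Flicr. Of 33 promoters with a Type7 level, 24 were at 70% or above and 5 under 20%. Of the 17 among them without an overlapping tile 4 were under 20%, among them Ipo5, a nuclear import receptor, at 0% and Fem1a, a substrate receptor of a ubiquitin ligase, at 0.328%. The fifth was the downstream of 2 placed starts of Pde8b, at 16.2% in the single Type7 library that measured it. The window of the upstream start was at 65.6% over 2 Type7 libraries, but these read unlike parts of it. Replicate 1 had 33.0% over 32 sites, and replicate 2 had 98.2% over 5 sites in the distal part. From position 155 to the end of that window, every site read in Type7 was at 0%, in a single library.

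Commd1 was the single gene among 34 maternally methylated imprint genes whose placed promoter lay near the tiles. Of the list 7 genes were placed anywhere, so for the others no statement is made. The Commd1 start that was placed lies inside Zrsr1, an imprinted gene within Commd1, in the GRCm38.p6 table. Over the 300 bases printed above, the Type3b libraries already had 51.5, 4.56 and 60.4%, and the Type4 libraries 25.1, 9.29, 0, 28.1 and 0.0715%. The Type5a libraries had 34.8, 0, 7.79 and 27.7%, the Type5b libraries 75.3, 64.3 and 49.6%, the Type6 libraries 99.3, 84.8 and 97.2%, and the Type7 libraries 97.6, 100 and 95.5%. All Type5b libraries lay above all Type5a libraries, and all Type6 libraries above all Type5b libraries, while the Type3b libraries overlapped those of both Type5a and Type5b. The tile chr11:22872801-22872900 was called higher in both steps. Of 12 germline genes 3 were placed, of 8 genes of DNA methylation 3 and of the Hox genes 2, with 0 near the tiles in each list. These lists were chosen with results of these data known.

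The Tsr1 promoter gained over the same stages but with more spread. Over its printed bases the Type5a libraries had 0, 2.81, 0 and 0.332%, the Type5b libraries 49.6, 5.81 and 2.69%, the Type6 libraries 67.6 and 34.0%, and the Type7 libraries 99.8 and 100%. The Type6 and Type5b libraries overlapped.

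At Sgpp2 the gain came after Type5b. Its promoter was at 0% in all 3 Type5a and all 3 Type5b libraries, at 21.2, 12.997 and 34.6% in the Type6 libraries and at 100, 82.1 and 100% in the Type7 libraries. Between 7 and 8 sites carried these values from Type5b on, all in the distal part of the 300 bases, so the bases at the gene start were not read in those stages. The Nkain2 promoter was low in Type6 too. It had 0, 0.556 and 2.99% in the Type6 libraries and 55.6, 69.998 and 96.1% in the Type7 libraries, over 19 to 28 of its 43 CpG. The promoter of Emilin2, an extracellular matrix protein, had 7.48, 0 and 4.17% in the Type6 libraries and 100 and 58.8% in the Type7 libraries. At Nkain2 and Emilin2 every Type7 library lay above every Type6 library, and no test is given since Type7 chose the tiles.

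**Figure D5:**
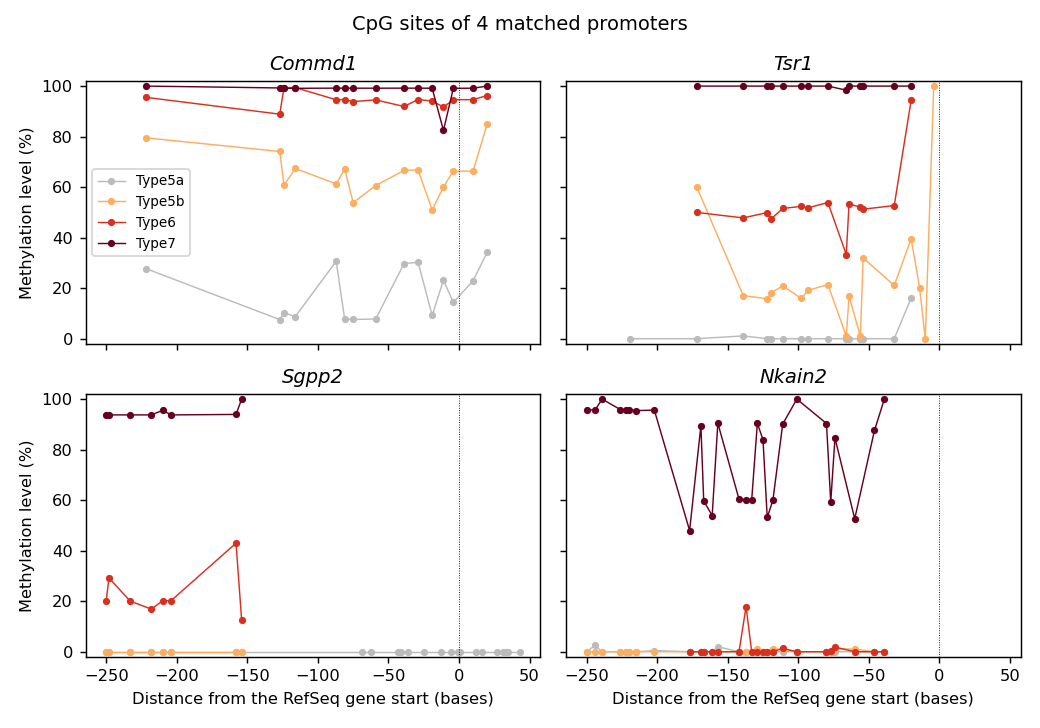
Methylation level of single CpG sites (y axis, %, mean over the libraries with at least 5 reads at the site) by distance from the gene start (x axis, bases, dotted line at 0) in 4 placed promoters and 4 stages. Commd1 is already partly methylated in Type5a and Type5b, Tsr1 is intermediate in Type6, Sgpp2 starts in Type6, and Nkain2 is near 0 in Type6 and at 48.0 to 100% in Type7, with a single Type6 site at 17.9%.

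Other promoters that overlapped a tile are given by their stage levels. Dennd6a, an activator of a Rab GTPase, was at 35.3% in Type5b, 86.3% in Type6 and 97.9% in Type7, with 0 and 70.6% in the 2 Type5b libraries that measured it. Rap1gap2 was at 30.02, 17.2 and 81.4% in these stages, with an SD of 27.5 points in Type5b. St8sia1, the sialyltransferase that makes ganglioside GD3, was at 46.0, 47.1 and 94.9%. Its libraries spread over most of the scale, with 42.4, 0.649 and 94.9% in Type5b and 6.68, 43.1 and 91.6% in Type6. Elavl2, an RNA-binding protein, was at 22.1, 50.0 and 74.8%, with SDs of 17.5, 70.7 and 14.97 points that span the differences. The X-linked long non-coding gene Flicr was at 48.4, 74.1 and 93.8%, with SDs of 31.8, 20.5 and 4.89 points. In Type5a the highest of these 5 was Flicr at 10.7%. Rsph3b, a radial spoke protein of cilia and flagella, was at 27.7, 41.6 and 81.3% from Type5b to Type7, with an SD of 29.4 points over 2 Type5b libraries. Gm13205 was at 0, 39.7 and 93.5% in these stages, with 14.9, 16.5 and 87.8% in the Type6 libraries. Its Type5b level came from 2 libraries, and its Type5a libraries had 0, 0, 11.5 and 35.2%. The 2 placed starts of Pde8b were at 37.1 and 43.6% in Type5b and at 98.2 and 98.0% in Type6. In Type7 they were at 16.2 and 65.6%, over 1 and 2 libraries.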

How the data were processed

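DNA methylation was measured by reduced representation bisulfite sequencing in 31 libraries of 9 stages, grouped by their titles. Per the submitters' processing notes BSMAP 2.89 and build mm9 were used, and the methylation caller is not given in the sources used here. For every CpG site listed, the authors deposited the count of all reads, the count of methylated reads and the methylated fraction, with no site under 3 reads. Read counts summed over the sites lay between 7949652 and 60361665 in a library, where a read that covers several sites counts at each. The reads carry no molecular identifiers, so they are not independent molecules.

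Sites of at least 5 reads were summed into tiles of 100 bp. Methylated and total reads of a tile were fitted by a quasi-binomial model of the 9 stages, using all libraries. Dispersions were moderated after the method of limma's squeezeVar with a floor of 1, stages at 0 or 100% were left out of its degrees of freedom (decided after a first look at the data), the F test was used, and p-values were adjusted over every tile tested. The scripts were tested on simulated reads. A p-value reflects the spread among the libraries of all 9 stages, moderated over tiles, and not that of the 2 stages compared alone. The labels name no animals, so this spread may be technical. The tiles named are those of the 10 regions with most tiles, the 5 largest called differences without overlap per direction, the 5 highest before Type5a, the 5 lowest in Type6 and the 3 on each side of 70%. The members, lists and tests were chosen with earlier results of these data known. Promoters were placed where every listed site of the overlap fell on a CG of the sequence, with 15 or more sites and a single place. The software was limma 3.58.1 in R 4.3.3 and pandas 2.3.3, numpy 2.4.6 and matplotlib 3.10.9 in Python 3.11.15, with scipy 1.17.1.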

Additional observations from a re-analysis of the deposited data

How the results depend on the processing

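The choice of tiles moved their number most. It was 147 with at least 10 reads per site, 469 with 30 or more CpG sites and 49 with 60 or more. With these 3 settings the calls in Type5b against Type5a numbered 57, 176 and 19, against 88, and those in Type6 against Type5b 22, 61 and 11, against 39. A fit on the libraries of the 2 stages alone called 55 and 1. Leaving out 1 library gave 33 to 86 calls in Type5b against Type5a, 23 to 38 in Type6 against Type5b and 0 in the 3 earlier comparisons. Without the libraries of X measure above 0, Type5a against Type4 had 4 calls.

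Over 8915 tiles the deviations of same-numbered libraries correlated at -0.178 and -0.0878 in Type3b against Type3a, at -0.0107 to 0.315 in Type5a against Type4 and at 0.00659 to 0.0213 in Type6 against Type5b. In no comparison were all pairs above 0.1, so the numbers were not taken to pair the libraries. With a replicate block the calls numbered 1 in Type3b against Type3a, 5 in Type4 against Type3b, 1 in Type5a against Type4, 37 in Type5b against Type5a, which share 1 number, and 66 in Type6 against Type5b. Leaving stages at 0 or 100% out of the degrees of freedom was decided after a first look at the data. Counting them in, also chosen after seeing the data, gave 1 call in Type4 against Type3b, 107 in Type5b against Type5a and 59 in Type6 against Type5b.

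The mean level in Type3b, whose SD is small, was 5.36% with at least 10 reads per site, 4.92% with 2 sites per tile, 4.91% with at most 10 reads counted, 6.69 and 3.69% with 30 and 60 CpG sites, 4.46 and 5.25% with Type7 at 60 and 80%, 3.76% with Type1 and Type2 under 10%, 2.14% over the tiles of all libraries, also chosen after seeing the data, and 4.51% with pooled reads. In Type4 it was 2.89% without the libraries of X measure above 0. In Type6 it was 65.9 and 65.7% with 30 and 60 CpG sites, 65.3% without those libraries and 56.7% with pooled reads. Leaving out 1 library gave 2.40 to 5.95% in Type3a, 4.71 to 4.84% in Type3b, 6.06 to 8.62% in Type4, 6.70 to 9.09% in Type5a, 37.3 to 47.2% in Type5b and 58.6 to 62.3% in Type6, and 242 to 246 tiles when a Type7 library was left out. The cause of these shifts was not tested. Of 243 repeats of 17 calls on named tiles, 28 lost the call and 0 changed direction. Depth limits tiles of few reads, such as a sum of 15 reads over 3 sites in a library, and counting error only is covered by the reads.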

Other observations

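The tiles gained methylation on both strands. Summed over the 240 tiles, reads of the minus strand were at 60.7, 35.4 and 35.2% and reads of the plus strand at 52.5, 30.7 and 43.1% in the Type5b libraries. In the Type7 libraries they were at 91.0, 90.7 and 96.1% on the minus strand and at 86.0, 92.6 and 94.0% on the plus strand. The order of the strands thus differed between libraries within Type5b and within Type7. In Type6 the minus strand was the higher in every library, at 58.6, 54.5 and 63.6%, against 57.9, 51.1 and 54.8%. The minus strand was also the higher in every Type1, Type3a and Type5a library, and the plus strand in every Type3b library. Type2 and Type4 libraries differed in the order. No test was made.

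Sites at the MspI cut, CCGG, were higher than other sites in Type5a and close to them in Type7. The 191 CCGG sites averaged 12.4% ± 3.25 (SD, n = 5) in Type5a, against 7.37% ± 3.77 at the 1833 other sites. In Type5b they averaged 46.1% ± 8.93 (n = 3), against 42.2% ± 9.96, and in Type7 91.5% ± 2.40, against 92.1% ± 2.08. CCGG sites were higher in all 5 Type5a libraries and in all 3 Type5b libraries, and in 1 of the 3 Type7 libraries. No test was made of these differences.

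Sites with A after the CpG averaged 37.4% ± 10.3 in Type5b, and those with T after it 44.9% ± 10.1. In Type7 they were at 91.5% ± 3.13 and 93.2% ± 2.74. Sites with T were the higher in each of these 6 libraries. In Type6 the order differed between libraries, with 56.2, 57.10 and 68.3% at sites with A and 61.8, 57.03 and 66.6% at sites with T. In Type5b sites with C after the CpG averaged 44.6% ± 9.16 and those with G 41.4% ± 10.6. No test was made.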
